A study of Rattus norvegicus with 21 samples.

Results

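Stressed rats that received imipramine were set against untreated rats, by gene expression in the dentate gyrus. The sample titles chose the members: 3 arrays of 3 imipramine animals and 6 arrays of 3 control animals, 9 arrays and 6 animals of the 21 arrays and 18 animals in the series. All were male Wistar rats of wild type genotype, 2 months old. The imipramine animals lived under unpredictable chronic mild stress for 6 weeks and over the last 2 of them received 10 mg/kg imipramine in saline each day by intraperitoneal injection. Control animals are labelled as neither stressed nor treated, and the labels do not say whether they were injected. The groups therefore differ in stress, drug and injection together, and these cannot be told apart between them. The other groups were stress alone, and stress with fluoxetine, tianeptine or agomelatine, 3 animals each. RNA was hybridised to Affymetrix rat Gene ST arrays, and levels are log2 values made with RMA, so that a difference of 1 is a doubling. Arrays give no read depth, and the 3 animals a group limit the precision.

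Imipramine is a tricyclic antidepressant that blocks the reuptake of noradrenaline and serotonin and binds muscarinic, histamine and adrenergic receptors. The dentate gyrus is the entrance of the hippocampus, built mainly of granule neurons, and it goes on making new neurons in adult life. Chronic stress raises circulating glucocorticoids, which act on this tissue through the glucocorticoid and mineralocorticoid receptors, and antidepressants given over weeks are known in rodents for effects on growth factors and on the birth of granule neurons.

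Each control animal was measured on an array named as its biological replicate (the first array) and on an array named as a technical replicate of it (the repeat array), and the pair was averaged. The median absolute difference between the repeat and the first arrays over genes was 0.082 on the log2 scale, about as large as the median standard error of the group difference, 0.0828. The 3 repeat arrays were all higher, or all lower, than their first arrays in 44.7% of genes. Differences against the first and the repeat arrays alone are therefore given beside the called genes and beside many of the others that moved with the choice. Array medians over all probe sets were 7.99 to 8.10. The median SD between animals was 0.0631 in the imipramine group and 0.0742 in the control group.

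Of 10804 genes tested, 2 passed an adjusted p under 0.05 (0.0185%), both lower in imipramine animals: H1f4, a linker histone that binds DNA where it enters and leaves the nucleosome, and Rpl39, a small protein of the large ribosomal subunit. No gene passed in the higher direction. H1f4 lost its call in 5 and Rpl39 in all 6 of the fits that left out 1 of these animals (adjusted p up to 0.408). Neither passed with animal as a random block over all arrays (adjusted p = 0.351 for H1f4 and 0.472 for Rpl39), with array medians set equal, without the eBayes trend or with the replicate block. At an unadjusted p under 0.05 there were 894 genes (8.27%), 535 higher (4.95%) and 359 lower (3.32%), where 540.2 would be met without any difference. The 3 imipramine animals all lay above the 3 control animals in 988 genes (9.14%) and all below them in 1094 (10.1%). The median difference over all genes was -0.01, and 46.2% of genes were above 0.

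The stretch around the start of transcription is shown for these genes and for Hist2h3c2, an H3 histone gene and the next histone gene by p, because histone genes are known to be switched on through short shared promoter boxes. Sequences are from RefSeq, build GRCr8, 150 bases before the start site and 30 from it on, 5′ to 3′. Capitals mark exact matches on either strand. The motif searched as the H1 box of linker histone genes was AAACACA. That of the TATA box, where transcription factor IID binds, was spelled TATAAA. The CCAAT box, bound by factor NF-Y, was searched by the letters of its name, and the core site of ETS family factors was spelled CCGGAAG. None of these motifs overlaps another in the stretches shown.
H1f4, chr17:41914275-41914454, plus strand: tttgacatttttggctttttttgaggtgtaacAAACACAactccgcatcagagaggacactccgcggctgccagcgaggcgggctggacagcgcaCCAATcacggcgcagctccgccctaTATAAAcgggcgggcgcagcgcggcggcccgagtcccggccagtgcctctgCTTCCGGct
Hist2h3c2, chr2:186526012-186526191, plus strand: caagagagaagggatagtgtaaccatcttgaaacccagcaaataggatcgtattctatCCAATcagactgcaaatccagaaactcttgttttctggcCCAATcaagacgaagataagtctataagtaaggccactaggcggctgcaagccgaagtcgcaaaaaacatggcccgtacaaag
Rpl39, chrX:121195867-121196046, minus strand: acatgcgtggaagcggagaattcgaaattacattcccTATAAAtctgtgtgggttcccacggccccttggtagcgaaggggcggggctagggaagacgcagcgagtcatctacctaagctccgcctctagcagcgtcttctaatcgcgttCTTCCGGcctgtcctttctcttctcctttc

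In H1f4 the H1 box began 118 bases before the start site, the CCAAT box 55 and the TATA box 30 bases before it, and an ETS core on the opposite strand lay downstream of the start. Hist2h3c2 held 2 CCAAT boxes, which began 92 and 53 bases before the start. In Rpl39 a TATA box began 113 bases before the start, and the ETS core, read on the opposite strand, lay at the start itself. Among the histone genes measured, 22 of 23 had a RefSeq promoter window (250 bases before to 50 after the start), and 21 of the 22 held the CCAAT box (95.5%), against 37.5% of all 33469 windows and 37.8% of those of the tested genes. The H1 box stood in 18.2% of the histone windows, 6.99% of all and 3.84% of those of the tested genes, and the TATA box in 50%, 14.2% and 7%. The ETS core was in 1 of the histone windows (4.55%), that of H1f4. Of 71 cytosolic ribosomal protein genes 60 had a window, 30% of which held the ETS core, against 8.75% of all and 16.1% of the tested genes. These matches describe the letters in the windows only.

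H1f4 had log2 levels of 10.52, 10.52 and 10.54 in imipramine animals 1 to 3, against 10.89, 10.94 and 10.83 in control animals 1 to 3. The imipramine animals lay close together and below all control animals. The log2 difference was -0.36 ± 0.05 (SE), a fold of 0.78 (adjusted p = 0.0314). Beside the first control arrays, at 10.63, 10.70 and 10.56, the groups again did not overlap but the log2 difference was -0.10 (adjusted p = 0.681). The repeat control arrays stood at 11.15, 11.18 and 11.11, and the log2 difference against them was -0.62 (adjusted p = 3.89e-06).

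Rpl39 had log2 levels of 11.83, 11.80 and 11.77 in imipramine animals, against 12.14, 12.22 and 12.13 in control animals. Its log2 difference was -0.36 ± 0.06 (SE), a fold of 0.779 (adjusted p = 0.0314), and the groups did not overlap. The first control arrays alone were at 11.77, 11.85 and 11.77, which overlaps the imipramine animals, and the log2 difference was 0.01 (adjusted p = 0.988). The repeat arrays were at 12.52, 12.59 and 12.48, giving a log2 difference of -0.73 (adjusted p = 1.48e-06). The further probe sets with the symbol Rpl39 differed by -0.35 to -0.39. Ribosomal protein genes have many near-identical copies in the rat genome, so these probe sets may read more than 1 gene. The difference in Rpl39 is therefore one between the imipramine arrays and the repeat control arrays, and it is not found beside the first arrays of the same animals. The part of the array set in either gene's group difference was not tested beyond these values.

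With the first control arrays alone limma called 0 genes (0%, 843 at an unadjusted p under 0.05), and with the repeat arrays alone 187, of which 137 were higher (1.27%) and 50 lower (0.463%) in imipramine animals. Of all genes 558 (5.16%) had no overlap, on the same side, with either set of control arrays, 265 higher and 293 lower. Over all genes the imipramine animals lay above all first arrays in 5.66% and below them in 10.6%, and above all repeat arrays in 14.2% and below them in 11.2%.

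**Figure D1:**
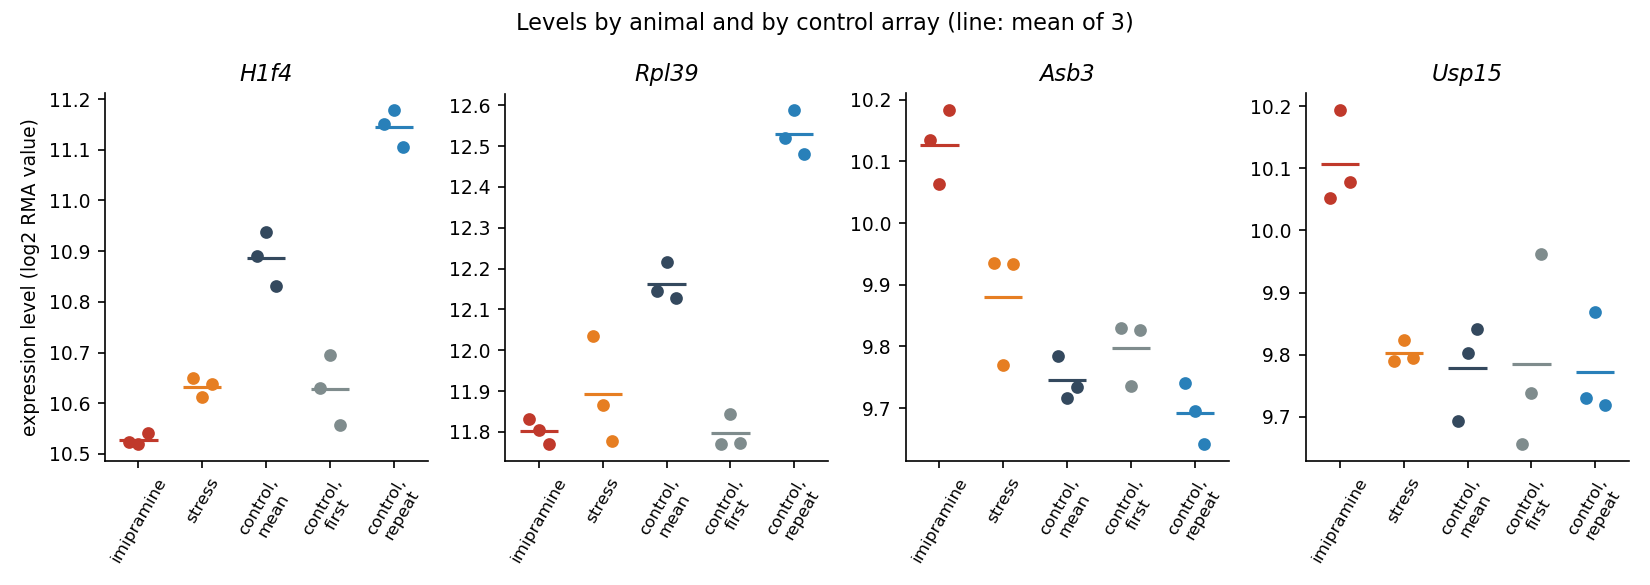
Log2 RMA levels (vertical axes, a scale of its own for each gene) of H1f4, Rpl39, Asb3 and Usp15. Points are the 3 animals or arrays of a column, for imipramine, stress alone, and control as the mean of both arrays, the first arrays and the repeat arrays, and lines are means of 3. For H1f4 the first and repeat control arrays stand at 10.56 to 10.70 and 11.11 to 11.18, and for Asb3 and Usp15 all control arrays lie below all imipramine animals.

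Higher in imipramine animals, with no gene past the adjusted threshold, were 12 genes taken by the smallest p among those whose groups did not overlap. Asb3, a SOCS-box adaptor of ubiquitin ligases, had the smallest p of them. It had log2 levels of 10.13, 10.06 and 10.18 in imipramine animals, against 9.79, 9.72 and 9.73 in control animals, a difference of 0.38 ± 0.07 (adjusted p = 0.076). It passed the threshold in 5 of 18 other settings. Among them were the fit with only the imipramine and control groups (adjusted p = 0.0481) and that without the agomelatine group (0.0476). It passed in no fit that left out 1 animal, and over the settings its adjusted p reached 0.644. The log2 difference was 0.33 against the first and 0.43 against the repeat arrays.

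Usp15, a deubiquitinating enzyme, had log2 levels of 10.05, 10.19 and 10.08 in imipramine animals, against 9.69, 9.80 and 9.84 in control animals, a difference of 0.33 ± 0.07 (adjusted p = 0.203). Of the genes shown here it is one that hardly moved with the control arrays, with a log2 difference of 0.32 against the first and 0.34 against the repeat arrays. Usp14, the deubiquitinase that sits on the proteasome and is not one of the 12, had log2 levels of 11.39, 11.65 and 11.49 in imipramine animals, against 11.16, 11.13 and 11.31 in control animals (difference 0.31 ± 0.08, adjusted p = 0.368). Both were above every control animal on both array sets.

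Ankra2, an ankyrin repeat protein, differed by 0.36 ± 0.07 on the log2 scale (adjusted p = 0.163) and Armcx3, a mitochondrial outer membrane protein of neurons, by 0.29 ± 0.06 (0.282), or 0.18 against the first and 0.40 against the repeat arrays. The sodium pump subunit Atp1b3 had log2 levels of 10.05, 10.54 and 10.05 in imipramine animals, against 9.51, 9.55 and 9.89 in control animals, a difference of 0.56 ± 0.12 (adjusted p = 0.315). Animal 2 of the imipramine group stood apart from the others in it. Nrn1 encodes neuritin, an activity-induced protein on the surface of neurons that promotes the growth of neurites. It had log2 levels of 12.39, 12.45 and 12.41 in imipramine animals, against 12.08, 12.12 and 12.16 in control animals, a difference of 0.30 ± 0.07 (adjusted p = 0.368). Its difference was 0.18 against the first arrays and 0.41 against the repeat arrays, and it passed with only the 2 groups in the fit (adjusted p = 0.0359).

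The other 6 genes of this direction differed by 0.27 to 0.44 on the log2 scale, each at an adjusted p of 0.368. Ghitm and Slc25a46 encode proteins of the mitochondrial inner and outer membrane (0.44 ± 0.11 and 0.27 ± 0.06). Efr3a, which anchors a phosphatidylinositol kinase at the plasma membrane, had 0.38 ± 0.09, and Rabggtb, a subunit of the enzyme that adds lipid tails to Rab proteins, 0.38 ± 0.09. Pyurf (0.28 ± 0.06) and the transmembrane protein gene Tmem69 (0.29 ± 0.07) completed the set. Ghitm passed with only the 2 groups in the fit (adjusted p = 0.0419), and differed by 0.28 against the first and 0.60 against the repeat arrays. For Rabggtb these were 0.21 and 0.55. Of the 12, 10 had no overlap with either set of control arrays, and the exceptions were Rabggtb and Tmem69. Over all genes the share was 5.16% in both directions together. The 12 were chosen for no overlap on the means of these arrays, so their count follows in part from the choice. Imipramine animal 2 was the highest of its group in 8 of the 12 genes, and in 473 of the 988 genes (47.9%) in which the imipramine animals lay above all controls.

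Lower in imipramine animals beside H1f4 and Rpl39 were 10 further genes chosen in the same way, again with none past the threshold (adjusted p = 0.368 to 0.382). Their log2 differences were -0.21 to -0.34. Ndufb10, a subunit of mitochondrial complex I, had log2 levels of 10.82, 10.76 and 10.58 in imipramine animals, against 11.08, 11.04 and 10.88 in control animals (-0.28 ± 0.07). Iscu, the scaffold on which iron-sulphur clusters are built, had 9.83, 9.65 and 9.75 on the log2 scale in imipramine animals, against 10.09, 10.12 and 10.04 in control animals (-0.34 ± 0.09). Ndufb10 overlapped the first control arrays (-0.14, and -0.42 against the repeat arrays), and Iscu lay below the arrays of both sets.

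At the synapse, Dlg4, which encodes the postsynaptic scaffold PSD-95, had log2 levels of 11.61, 11.66 and 11.58 in imipramine animals, against 11.80, 11.91 and 11.77 in control animals (-0.21 ± 0.06). Csk, the kinase that holds Src family kinases inactive, differed by -0.25 ± 0.07 and Kat2a, a histone acetyltransferase, by -0.25 ± 0.07. In these genes the imipramine animals lay below every control array of both sets. Zfp777, a zinc finger protein gene, differed by -0.34 ± 0.09, the antibody receptor and ubiquitin ligase gene Trim21 by -0.32 ± 0.08 and the nucleolar protein gene Nol12 by -0.26 ± 0.07. The ribosomal protein genes Rps14 (-0.27 ± 0.07) and Rps10 (-0.25 ± 0.07) overlapped the first control arrays, as did Zfp777 and Nol12, while Trim21 did not. Against the first and the repeat arrays the log2 differences were -0.08 and -0.46 for Rps14, -0.13 and -0.37 for Rps10, -0.18 and -0.50 for Zfp777, and -0.10 and -0.41 for Nol12. Of these 12 lower genes, H1f4 and Rpl39 included, 6 had no overlap with either array set, which again follows in part from the choice. Log2 differences against the first arrays alone were 0.18 to 0.45 for the higher genes and -0.29 to 0.01 for the lower ones.

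**Figure D2:**
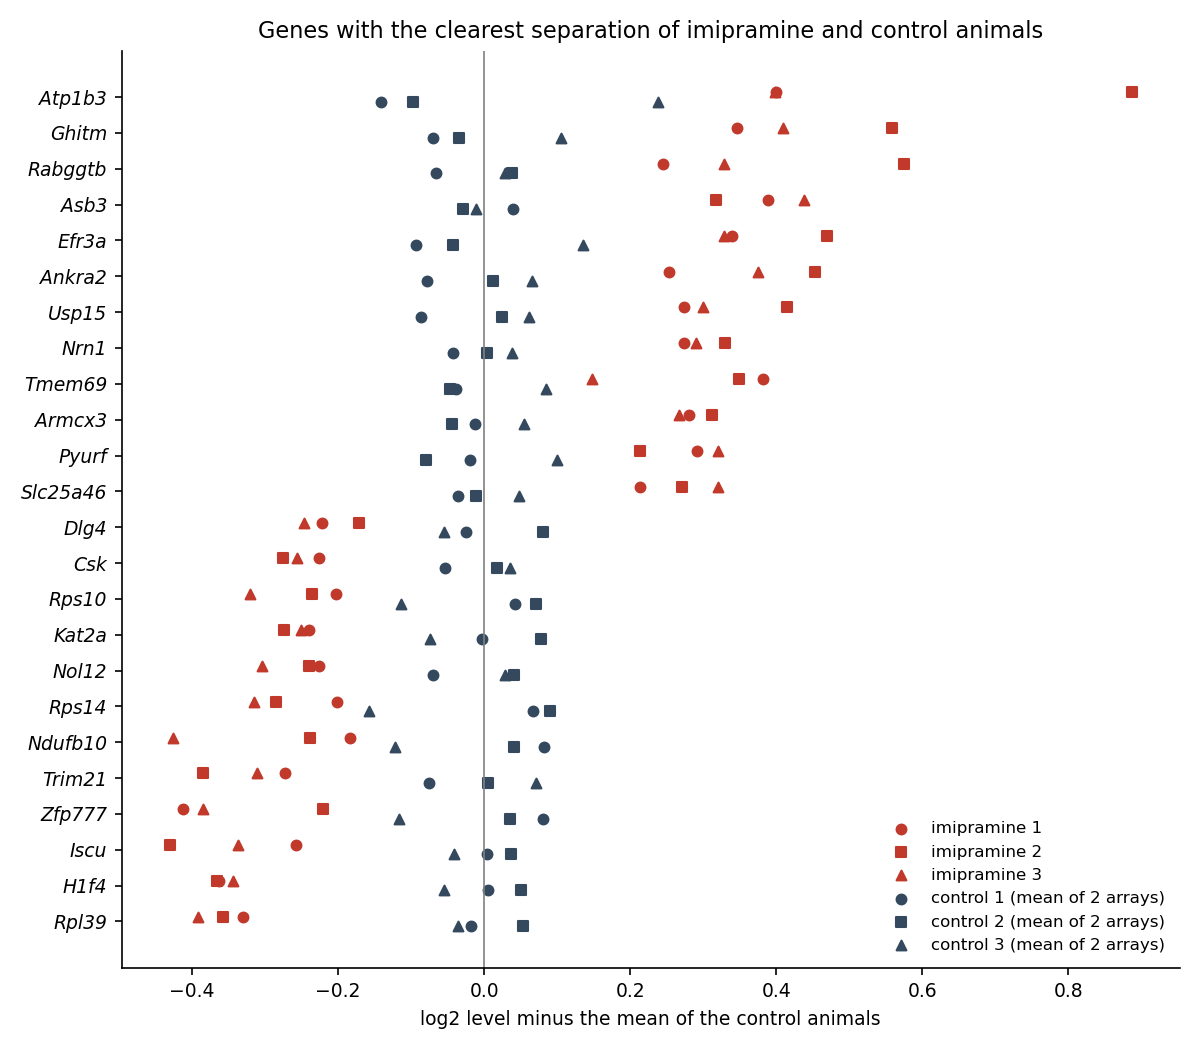
Log2 level of each animal minus the mean of the 3 control animals (horizontal axis) for the 24 genes, 12 in each direction, that the naming rule chose. Red symbols are imipramine animals and dark symbols control animals, each the mean of 2 arrays, and the choice required that they do not overlap. Imipramine animal 2 (square) is the highest in 8 of the 12 higher genes.

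Of 23 measured histone genes, mostly genes whose RNA is made in S phase and also variant H2A genes that are not, 1 was called (H1f4), 21 were below 0 and the median log2 difference was -0.11, beside -0.01 over all genes. No overlap was met in 10 in the lower direction (43.5%, beside 10.1% of all genes) and none in the higher. It was met in 6 lower with the first arrays, beside 10.6% of all genes, and in 13 lower with the repeat arrays, beside 11.2%. Hist2h3c2 had log2 levels of 10.93, 11.002 and 10.95 in imipramine animals, against 11.16, 11.14 and 11.14 in control animals (-0.19 ± 0.05, adjusted p = 0.382). Hist1h2af (-0.27 ± 0.09, adjusted p = 0.434) and H2bc18 (-0.25 ± 0.09, adjusted p = 0.448), an H2A and an H2B gene, likewise had no overlap, but overlapped the first control arrays. Hist1h2af differed by -0.05 against the first and -0.50 against the repeat arrays, and Hist2h3c2 by -0.11 and -0.26. The median was -0.05 against the first control arrays and -0.20 against the repeat arrays, which themselves were higher than the first ones by a median of 0.15 in these genes. Histone genes lie in clusters of near-identical copies, so single members may not be told apart by their probes.

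Of the 71 ribosomal protein genes of the cytosol 56 were below 0, with a median log2 difference of -0.07 that was the same against the first arrays (-0.07) and close to it against the repeat arrays (-0.08). Rpl39 was the only member called. No overlap was met in 17 members lower (23.9%, beside 10.1% of all genes) and 1 higher (1.41%, beside 9.14%). With the first arrays these were 11 and 1, beside 10.6% and 5.66% of all genes. With the repeat arrays they were 24 and 11, beside 11.2% and 14.2%. Rpl41, the smallest ribosomal protein gene, had log2 levels of 12.20, 12.14 and 12.17 in imipramine animals, against 12.37, 12.30 and 12.42 in control animals (-0.19 ± 0.07, adjusted p = 0.444), and -0.08 against the first arrays and -0.30 against the repeat arrays. Imipramine animal 1 had a mean deviation of -0.02 over the list and animals 2 and 3 of -0.11 and -0.09, while control animals 1 to 3 had -0.01, 0.06 and -0.05, so the groups overlap on the list as a whole. Mitochondrial ribosomal genes were above 0 in 30 of 67 (median log2 difference -0.01).

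Subunits of oxidative phosphorylation, the mitochondrial chain that makes ATP, were above 0 in 24 of 70 with a median log2 difference of -0.03 (-0.06 against the first arrays and -0.03 against the repeat arrays). None was called. Beside Ndufb10 the smallest p were those of Ndufs5 of complex I (-0.27 ± 0.08), Atp5mg of ATP synthase (-0.26 ± 0.09) and its inhibitor Atp5if1 (-0.15 ± 0.05), at adjusted p of 0.391 to 0.448. Ndufs5 passed without control animal 3 (log2 difference -0.40, adjusted p = 0.0426). Against the first control arrays the log2 differences were -0.11 for Ndufs5, -0.02 for Atp5mg and 0.01 for Atp5if1, and against the repeat arrays -0.44, -0.50 and -0.31.

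Genes of protein folding and turnover had members on both sides and none was called. Chaperone genes were above 0 in 21 of 34 (median log2 difference 0.03) and ubiquitin-specific proteases in 23 of 35 (0.04), while proteasome subunits divided at 17 of 35 (median -0.0002). Hspd1, the mitochondrial chaperonin HSP60, had log2 levels of 10.82, 10.997 and 10.80 in imipramine animals, against 10.46, 10.46 and 10.68 in control animals (0.34 ± 0.09, adjusted p = 0.368), with 0.22 against the first and 0.46 against the repeat arrays, and a second probe set of it differed by 0.19. Its partner Hspe1, HSP10, differed the other way (-0.16 ± 0.06, adjusted p = 0.503). The cytosolic HSP110 family gene Hspa4l differed by 0.27 ± 0.08, and the proteasome genes Psmc6, an ATPase of the cap, by 0.47 ± 0.14 and Psmd6 and Psmd1, of the lid and base, by 0.22 ± 0.06 and 0.30 ± 0.10 on the log2 scale (adjusted p = 0.382 to 0.430). Psmd6 had 0.13 against the first and 0.31 against the repeat arrays.

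Splicing factors of the SR and hnRNP families were above 0 in 24 of 28, with a median log2 difference of 0.07 that stayed near it against the first (0.07) and the repeat arrays (0.08). None was called. No overlap was met in 8 members higher and 1 lower, beside 9.14% and 10.1% of all genes, and in 1 of each direction with the first arrays, beside 5.66% and 10.6%. Srsf3, an SR protein, had log2 levels of 9.30, 9.43 and 9.46 in imipramine animals, against 9.07, 9.01 and 9.20 in control animals (0.30 ± 0.10, adjusted p = 0.430), and 0.14 against the first and 0.47 against the repeat arrays. Hnrnpu, which binds nascent RNA in the nucleus, differed by 0.19 ± 0.07 (adjusted p = 0.503) and was above all control arrays of both sets. Mean deviations over the list were 0.02, 0.14 and 0.09 in imipramine animals 1 to 3, against -0.07, -0.00 and 0.05 in control animals, and without imipramine animal 2 the median difference was 0.02.

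**Figure D3:**
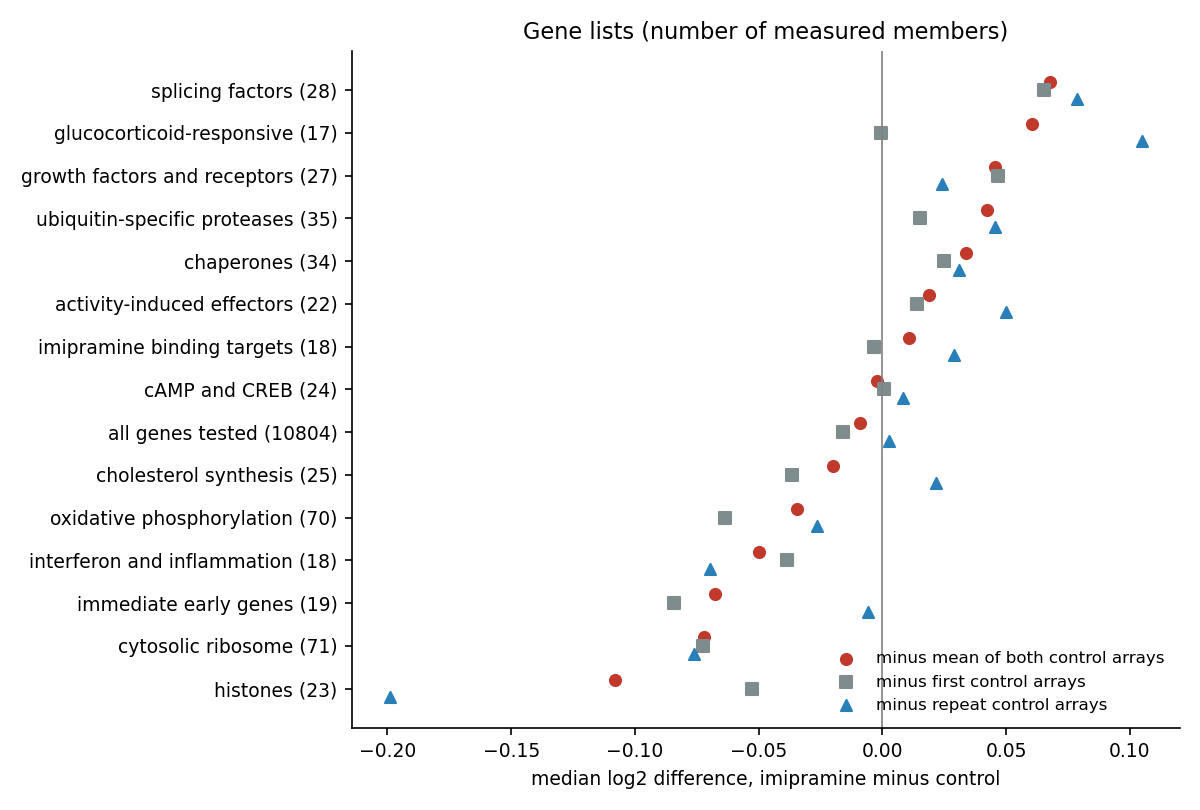
Median log2 difference, imipramine minus control (horizontal axis), of 14 gene lists and of all genes tested, with the number of measured members in brackets. Circles use the mean of both control arrays, squares the first and triangles the repeat arrays alone. Histones lie between -0.05 and -0.20 by array set, while cytosolic ribosome genes stay at -0.07 to -0.08.

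Receptors and transporters that imipramine binds, listed together with the enzyme gene Smpd1, were close to 0 as a list. Single members ran from -0.11 (Smpd1) to 0.31 (the serotonin receptor gene Htr2a) in log2 difference. Of 21 such genes 18 were tested, 12 of them above 0 and none called, with a median log2 difference of 0.01. None was free of overlap, beside 19.3% of all genes, but against the repeat control arrays 1 higher and 1 lower member were. The noradrenaline transporter gene Slc6a2 differed by 0.02 and Smpd1, acid sphingomyelinase, which tricyclic drugs functionally inhibit, by -0.11 ± 0.09 on the log2 scale (adjusted p = 0.81). The serotonin receptor gene Htr2c had log2 levels of 7.44, 7.40 and 7.19 in imipramine animals, against 7.08, 7.01 and 7.41 in control animals, and Htr1a, its inhibitory relative on granule neurons, 11.33, 11.45 and 11.30 against 11.19, 11.48 and 11.30. Both overlap between the groups. Serotonin receptor genes were above 0 in 7 of 12 (median 0.05, and -0.01 against the first arrays), and Htr1f had the smallest p (0.31 ± 0.15, adjusted p = 0.622). Its log2 difference was 0.05 without control animal 2 and 0.455 without control animal 3.

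Among 12 genes of monoamine handling, 6 were above 0 (median log2 difference -0.01). Maoa, the monoamine oxidase that breaks down serotonin and noradrenaline, had log2 levels of 10.31, 10.38 and 10.37 in imipramine animals, against 10.19, 10.21 and 10.16 in control animals (0.17 ± 0.06, adjusted p = 0.414). Adra2c, an inhibitory noradrenaline receptor, had 9.27, 9.35 and 9.28 on the log2 scale in imipramine animals, against 9.45, 9.59 and 9.57 in control animals (-0.24 ± 0.10, adjusted p = 0.567). These 2 were the only members of this list without overlap, beside 19.3% of all genes, and neither overlapped with either set of control arrays.

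Genes induced through corticosteroid receptors were above 0 in 10 of 17, none called, with a median log2 difference of 0.06 that was -0.00 against the first control arrays. Nfkbia, an inhibitor of NF-kB, had log2 levels of 8.81, 8.71 and 8.88 in imipramine animals, against 8.52, 8.58 and 8.49 in control animals (0.27 ± 0.07, adjusted p = 0.368). Sgk1, a kinase induced by glucocorticoids, had 10.80, 10.88 and 10.93 on the log2 scale in imipramine animals, against 10.69, 10.65 and 10.70 in control animals (0.19 ± 0.07, adjusted p = 0.448). The stress animals, with no drug, stood at log2 levels of 8.86, 8.82 and 8.73 for Nfkbia and 10.93, 11.03 and 10.83 for Sgk1, within or above the imipramine range.

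Fkbp5, the receptor cochaperone that glucocorticoids induce, had 10.21, 9.86 and 10.16 on the log2 scale in imipramine animals, against 9.79, 9.86 and 9.91 in control animals (0.22 ± 0.12, adjusted p = 0.674), and the groups overlap. Its difference was 0.12 against the first and 0.33 against the repeat arrays. Arrdc2 (-0.19 ± 0.08, adjusted p = 0.567) and Gadd45g (-0.19 ± 0.09, adjusted p = 0.585) lay on the other side. The receptors themselves, Nr3c1 for glucocorticoids (-0.01 ± 0.06, adjusted p = 0.995) and Nr3c2 for mineralocorticoids (-0.11 ± 0.06, adjusted p = 0.688), overlapped between the groups. Dusp1, a MAP kinase phosphatase that glucocorticoids also induce, had log2 levels of 9.09, 9.11 and 9.32 in imipramine animals, against 9.36, 9.26 and 9.25 in control animals (-0.12 ± 0.11, adjusted p = 0.855), and differed by -0.21 from the first and -0.02 from the repeat arrays.

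Transcription factors induced by neuronal activity divided. Of 19 members 8 were above 0, none called, with a median log2 difference of -0.07 (-0.08 against the first and -0.01 against the repeat arrays). No overlap was met in 3 higher and 7 lower, beside 9.14% and 10.1% of all genes. With the first arrays it was met in 1 and 7, beside 5.66% and 10.6%, and with the repeat arrays in 3 and 5, beside 14.2% and 11.2%. Npas4, a factor that neurons make only after calcium entry and that recruits inhibitory synapses, had log2 levels of 7.82, 7.91 and 8.09 in imipramine animals, against 8.35, 8.21 and 8.46 in control animals (-0.40 ± 0.12, adjusted p = 0.391). It lay below every control array of both sets. Fos differed by -0.15 ± 0.09 (adjusted p = 0.717) and Arc by 0.02 ± 0.14 (0.993). Jun (0.16 ± 0.06, adjusted p = 0.472), Nr4a3 (0.20 ± 0.09, 0.585) and Egr1 (0.17 ± 0.09, 0.644) lay on the higher side. Against the first and the repeat arrays Jun had 0.09 and 0.23, and Egr1 0.10 and 0.23.

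The effector genes that such factors and calcium signals control were above 0 in 14 of 22 (median log2 difference 0.02), again with none called. Ptgs2, the inducible cyclooxygenase of excitatory neurons, had log2 levels of 10.89, 11.01 and 10.95 in imipramine animals, against 10.51, 10.65 and 10.68 in control animals (0.34 ± 0.09, adjusted p = 0.368). Homer1, a postsynaptic adaptor, differed by 0.32 ± 0.11 (adjusted p = 0.433) and Gadd45b, linked to DNA demethylation in granule neurons, by -0.20 ± 0.08 (adjusted p = 0.503). Ptgs2 and Gadd45b had no overlap with either set of control arrays, on opposite sides.

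Growth factors and their receptors were above 0 in 17 of 27, none called, with a median log2 difference of 0.05, which was 0.006 without imipramine animal 2. Bdnf, the neurotrophin most studied with antidepressants, had log2 levels of 8.89, 9.20 and 8.94 in imipramine animals, against 8.50, 8.80 and 8.84 in control animals (0.30 ± 0.12, adjusted p = 0.516). The groups did not overlap on the means of both arrays, and overlapped on the first arrays, where control animal 3 was at 8.91. Fgf2 (0.23 ± 0.09, adjusted p = 0.503) and Tgfa (0.23 ± 0.09, adjusted p = 0.522), which act on fibroblast and epidermal growth factor receptors, had no overlap with either array set. Ntrk2, the receptor of Bdnf, differed by -0.01 ± 0.05 (adjusted p = 0.977).

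Among genes of cyclic AMP signalling 12 of 24 were above 0, none called. The phosphodiesterase gene Pde4b differed by 0.18 ± 0.06 on the log2 scale and its relative Pde4a by -0.19 ± 0.08 (adjusted p = 0.448 and 0.567), Gnal, a stimulatory G protein subunit, by -0.18 ± 0.07 (adjusted p = 0.512, with -0.08 against the first and -0.27 against the repeat arrays), and Creb1, the transcription factor at the end of the path, by 0.06 ± 0.08 (adjusted p = 0.890). In cholesterol metabolism 11 of 25 were above 0 (median log2 difference -0.02). Idi1, an enzyme of the mevalonate path, had log2 levels of 8.49, 9.02 and 8.69 in imipramine animals, against 7.94, 8.15 and 8.41 in control animals (0.57 ± 0.15, adjusted p = 0.368). Idi1 overlapped on the first control arrays, with a log2 difference of 0.465 against them and 0.67 against the repeat arrays. The sterol exporter gene Abcg1 differed by -0.19 ± 0.06 and Tm7sf2, a late enzyme of the path, by -0.20 ± 0.08 (adjusted p = 0.448 and 0.567).

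In lysosomal genes, where tricyclic drugs accumulate as weak bases, 11 of 34 were above 0 with a median log2 difference of -0.02, which was -0.06 against the first and 0.02 against the repeat control arrays. Clock genes were above 0 in 5 of 17 (median -0.02, and 0.00 against the first arrays), and Nr1d1, the repressor REV-ERB alpha, differed by -0.34 ± 0.11 (adjusted p = 0.409), with log2 levels of 10.34, 10.70 and 10.66 in imipramine animals, against 10.90, 11.01 and 10.81 in control animals. The labels do not state the hour of tissue collection. Inflammation and interferon genes were above 0 in 8 of 18 (median -0.05). Mx2, an interferon-induced antiviral GTPase, had log2 levels of 7.53, 7.93 and 7.76 in imipramine animals, against 8.10, 9.02 and 8.22 in control animals (-0.71 ± 0.27, adjusted p = 0.503), and control animal 2 stood apart from the others.

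Channel and receptor genes of neurons stayed near 0 as lists. Glutamate genes were above 0 in 12 of 27, GABA genes in 7 of 16, presynaptic genes in 16 of 28 and potassium channels in 22 of 59, with median log2 differences of -0.01, -0.02, 0.00 and -0.02 and none called. Kcnd1 and Kcna4, both pore subunits of A-type potassium channels, differed in opposite directions, by -0.24 ± 0.07 and 0.24 ± 0.09 (adjusted p = 0.391 and 0.493). In the GABA system Gabrb1, a subunit of GABA-A receptors, had 0.14 ± 0.06 and Gabrd, the subunit of receptors outside the synapse on granule neurons, -0.17 ± 0.07 as log2 differences (adjusted p = 0.534 and 0.542). Of 12 MAP kinase phosphatase genes 5, and of 13 genes of corticosteroid and CRH receptors and cochaperones 6, were above 0.

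Cell type markers were compared between the groups, which does not test the tissue label. In a bulk sample fewer cells of a type and less RNA per cell cannot be told apart. Granule neuron markers were measured for 8 of the 16 listed and included Prox1, C1ql2 and Calb1. Their mean deviation from the mean of all animals was 0.05, 0.06 and 0.01 in imipramine animals, against 0.02, 0.10 and -0.04 in control animals, so the groups overlap. Of these 8 markers 6 were above 0 (median log2 difference 0.04). C1ql2, a synaptic organiser of mossy fibres, was the lowest of them and differed by -0.22 ± 0.07 (adjusted p = 0.410). Markers of immature neurons were above 0 in 9 of 12 (median log2 difference 0.06), and Dcx, the doublecortin gene of newborn neurons, had log2 levels of 9.29, 9.25 and 9.20 in imipramine animals, against 9.24, 9.07 and 9.15 in control animals (0.09 ± 0.13, adjusted p = 0.914). Sox11, another such marker, differed by 0.16 ± 0.10 (adjusted p = 0.746), and Neurod2 by -0.19 ± 0.06 (adjusted p = 0.430). Against the first and the repeat arrays Sox11 had 0.30 and 0.01, and Neurod2 -0.11 and -0.26.

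Markers of pyramidal neurons, which belong to the neighbouring CA fields, were measured for 15 of the 16 listed and were above 0 in 8. Neurod6, a transcription factor of such neurons, had log2 levels of 11.28, 11.20 and 11.46 in imipramine animals, against 10.21, 10.57 and 11.09 in control animals (0.69 ± 0.19, adjusted p = 0.368). Control animals were widely spread in this gene, and all their arrays lay below the imipramine animals. Interneuron and neuropeptide genes were above 0 in 9 of 16. Penk, the enkephalin precursor, differed by 0.32 ± 0.13 (adjusted p = 0.503), Cnr1, the cannabinoid receptor, by 0.21 ± 0.09 (0.574), Nos1, neuronal nitric oxide synthase, by -0.21 ± 0.09 (0.574), and Sst, somatostatin, by 0.04 ± 0.13 (0.975). The mean deviation of the pyramidal list was -0.07, -0.05 and -0.07 in imipramine animals, against -0.13, -0.18 and -0.04 in control animals. The part of neighbouring fields in any result was not tested.

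Markers of microglia, vessels, oligodendrocytes and meninges mostly lay below 0, where 46.2% of all genes were above it. Microglial markers were above 0 in 2 of 14 (median log2 difference -0.09), vessel markers in 5 of 19 (-0.10), oligodendrocyte markers in 4 of 16 (-0.05) and meningeal markers in 0 of 11 (-0.15), and none of these members was called. Against the repeat control arrays oligodendrocyte markers were above 0 in 8 of 16 (median 0.00), and the microglial median was -0.16 against the first and -0.05 against the repeat arrays. Mean deviations over the microglial list were -0.02, -0.16 and -0.18 in imipramine animals, against 0.06, -0.00 and -0.09 in control animals, which overlap. Over the meningeal list they were -0.28, -0.21 and -0.24 in imipramine animals, against -0.17, -0.21 and 0.08 in control animals, and control animal 3 alone was above 0. Without that animal the median meningeal difference was -0.04.

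Single members lay on both sides of 0. The vessel gene Itm2a differed by -0.29 ± 0.12 (adjusted p = 0.530), the VEGF receptor Flt1 by -0.20 ± 0.11 (0.674), the endothelial junction gene Cldn5 by -0.12 ± 0.08 (0.757) and the microglial gene Aif1 by -0.21 ± 0.11 (0.637). Flt1 had no overlap with either set of control arrays, and Cldn5 lay at -0.31 against the first control arrays and 0.07 against the repeat ones. For Itm2a these were -0.19 and -0.39, for Aif1 -0.11 and -0.31, and for Tnr -0.09 and -0.19. Tnr, an extracellular matrix gene of the oligodendrocyte lineage, differed by -0.14 ± 0.05 (adjusted p = 0.501) and Gpr17 of the same lineage by 0.10 ± 0.07 (0.775). Astrocyte markers were above 0 in 5 of 12, and Gfap had log2 levels of 11.43, 11.42 and 11.42 in imipramine animals, against 11.29, 11.40 and 11.18 in control animals (0.13 ± 0.13, adjusted p = 0.855), which overlap on the first control arrays. Choroid plexus markers were above 0 in 4 of 8, and their marker Ttr was at log2 levels of 7.30, 8.09 and 7.01 in imipramine animals, against 7.14, 7.66 and 7.35 in control animals, where 1 stress animal had 11.77.

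**Figure D4:**
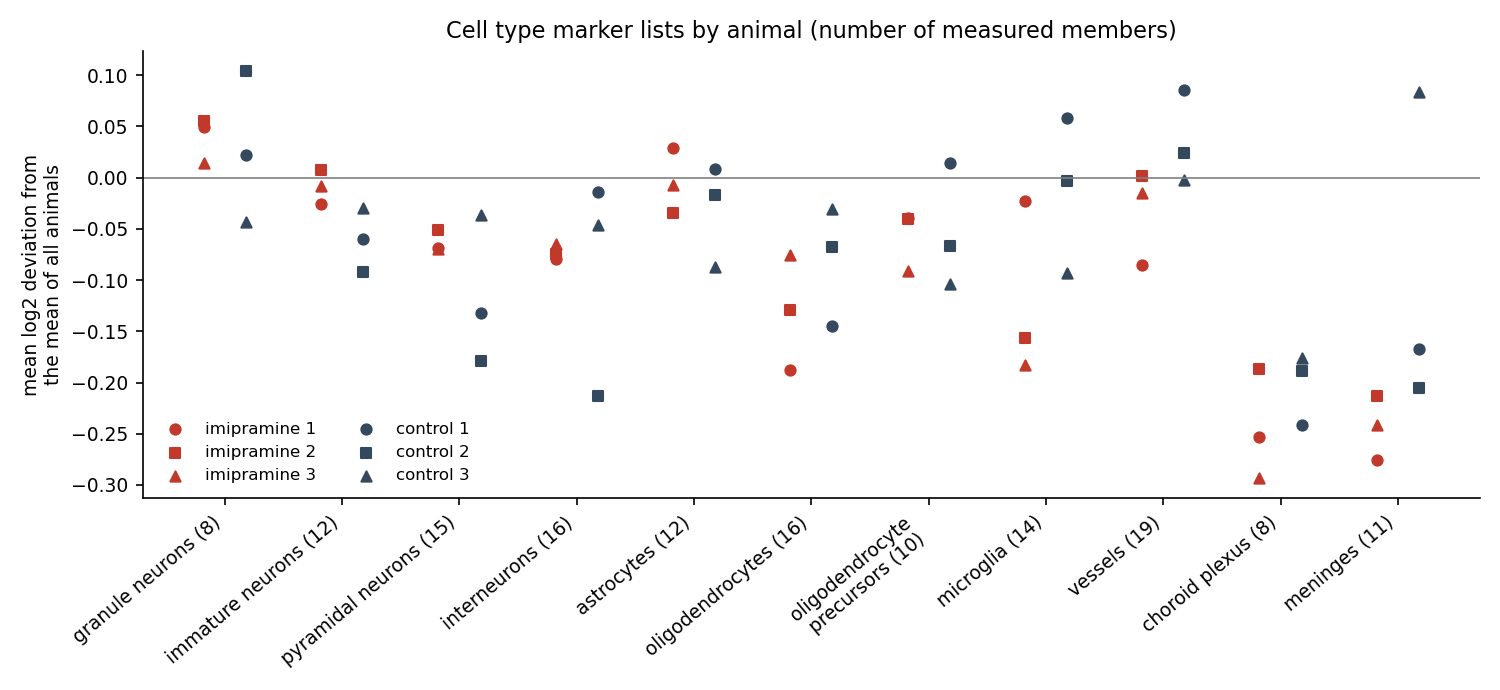
Mean log2 deviation from the mean of all 18 animals (vertical axis) over 11 cell type marker lists, with the number of measured members in brackets. Red symbols are imipramine animals 1 to 3 and dark symbols control animals 1 to 3. The groups overlap in granule neuron, pyramidal and microglial markers. They narrowly miss overlap in immature neuron markers (lowest imipramine animal -0.026, highest control animal -0.029) and in meningeal markers (highest imipramine animal -0.213, lowest control animal -0.205). Control animal 3 is the only one above 0 in meningeal markers (0.08).

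Stress alone against the same controls gave 0 called genes (0%, smallest adjusted p 0.728), with 583 at an unadjusted p under 0.05 (5.4%). As that comparison and the imipramine one share their control arrays, each is given with its own values and nothing is read from their likeness. H1f4 differed from control by -0.36 with imipramine and by -0.25 with stress alone, fluoxetine by -0.09 and tianeptine by -0.23 on the log2 scale. For Rpl39 the log2 differences were -0.36, -0.27, -0.22 and -0.23 in the same order. Usp15 stood at 0.33, 0.02, 0.07 and 0.16, and Npas4 at -0.40, 0.15, -0.13 and -0.26.

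**Figure D5:**
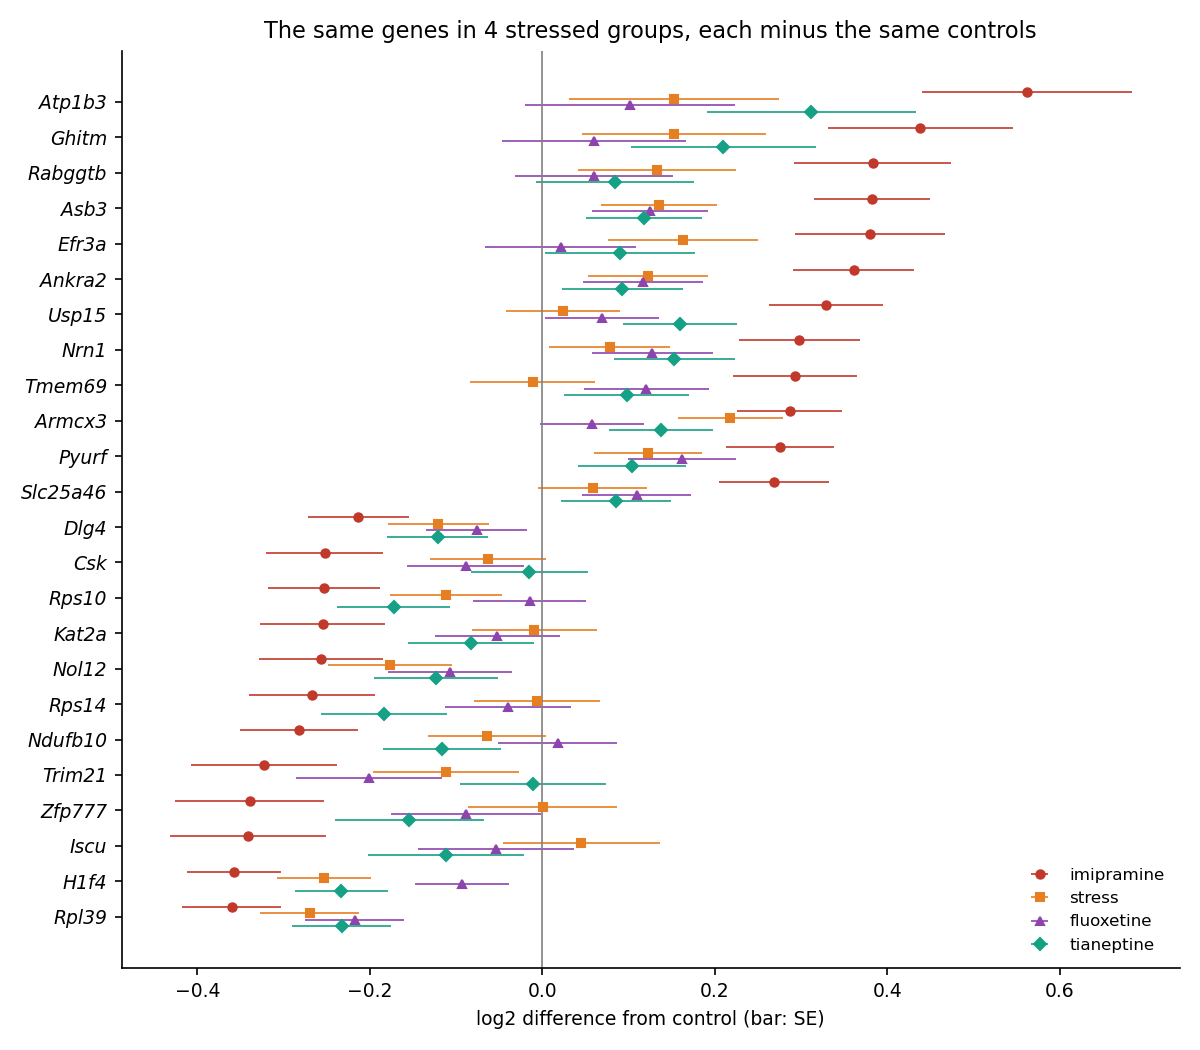
Log2 difference from the same 3 control animals (horizontal axis, bars are SE) of the 24 genes in the imipramine, stress, fluoxetine and tianeptine groups, n = 3 animals each. The genes were chosen for the imipramine difference, so that its points lie farthest from 0 follows from the choice. For Usp15 the points are at 0.33, 0.02, 0.07 and 0.16.

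The direct comparison of imipramine with stress alone asks what the drug and its injections add. Its log2 differences use no control array, but its SE and p draw on the spread within all 6 groups, control included. The imipramine animals are those of the comparison above, so genes that were chosen there are given as values only, apart from Usp15. Usp15 was chosen in both comparisons on the same imipramine animals, so its p here is not independent of the earlier choice. limma called 0 genes (0%, smallest adjusted p 0.330), with 1081 at an unadjusted p under 0.05 (10%), 357 higher and 724 lower.

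Dusp1 had the largest of the log2 differences named for this comparison, with log2 levels of 9.09, 9.11 and 9.32 in imipramine animals, against 9.86, 9.66 and 9.84 in stress animals (-0.61 ± 0.11, adjusted p = 0.330). Control animals, at 9.25 to 9.36, lay with the imipramine animals. Pmm1, a phosphomannomutase, had 9.78, 9.73 and 9.63 on the log2 scale in imipramine animals, against 9.98, 10.14 and 10.25 in stress animals (-0.41 ± 0.08), and mrpl24, a mitochondrial ribosomal protein gene, differed by -0.28 ± 0.06. On the higher side were Usp15 (0.31 ± 0.07), Cyria, a regulator of Rac1 (0.25 ± 0.06), and Fancd2osl1 (0.58 ± 0.13). These 6 genes were taken by the smallest p among those whose groups did not overlap, so that they lack overlap follows from the choice. Each had an adjusted p of 0.330. Npas4 was also lower than with stress alone, by -0.55 on the log2 scale, with stress animals at 8.71, 8.32 and 8.44.

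Against fluoxetine, a serotonin reuptake inhibitor given at the same 10 mg/kg in water, limma called 0 genes (0%, smallest adjusted p 0.269), with 1191 at an unadjusted p under 0.05 (11%). Nfkbia had log2 levels of 8.81, 8.71 and 8.88 in imipramine animals, against 8.49, 8.41 and 8.45 in fluoxetine animals (0.35 ± 0.07, adjusted p = 0.269). H1f4 had 10.72, 10.79 and 10.87 on the log2 scale in fluoxetine animals and differed by -0.27 ± 0.05 (adjusted p = 0.269). This log2 difference holds no control array, but its SE and p draw on the spread within all 6 groups, control included. H1f4 was called against control on the same imipramine animals, so this value is not independent of that call. Slc40a1, the iron exporter ferroportin, differed by 0.36 ± 0.07, Mphosph8, a reader of methylated histone H3, by 0.36 ± 0.07, Ankmy2 by -0.26 ± 0.05 (adjusted p = 0.269 each) and Npy, neuropeptide Y, by -0.54 ± 0.12 (adjusted p = 0.326).

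Against tianeptine, an atypical tricyclic antidepressant given at the same dose in the same vehicle, limma called 0 genes (0%, smallest adjusted p 0.789), with 664 at an unadjusted p under 0.05 (6.15%). C3, the central complement component, had log2 levels of 8.18, 8.19 and 8.04 in imipramine animals, against 9.31, 8.80 and 9.14 in tianeptine animals (-0.95 ± 0.19), with control animals at 8.23, 8.26 and 8.58. Stat5a, a transcription factor of cytokine signalling, differed by -0.38 ± 0.08 and Mt1, a metallothionein, by -0.34 ± 0.08. Higher were Rab5a, which directs early endosomes (0.30 ± 0.08), Luc7l, a splicing factor gene (0.26 ± 0.06), and Tmod3, which caps actin filaments (0.35 ± 0.09). All 6 were likewise chosen among genes without overlap, and had an adjusted p of 0.789. A p that misses the threshold here does not show that the drugs acted alike.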

How the data were processed

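The deposited log2 expression values were made by the authors with RMA (background subtraction, quantile normalisation and probe summary) using Expression Console 1.2, as the submitters' processing notes list it. RNA was column-purified with DNase, per the labels' protocols. Of 29214 probe sets 15310 had 1 gene symbol, 323 several and 13581 none in the platform annotation, and 15279 matched RefSeq (GRCr8, for names). Genes with a mean at or above the 25th percentile (log2 7.17) were kept, each by its brightest probe set, leaving 10804. Control arrays of 1 animal were averaged. Each of 6 groups had its own mean in limma 3.58.1 (R 4.3.3) over 18 animals (12 residual degrees of freedom, eBayes with trend), with p-values adjusted by Benjamini-Hochberg over all genes and called under 0.05. The procedure was tested on simulated data. All p-values are from this two-sided test. Lists are described by counts and medians, without a test. Named are 12 genes per direction (called first, otherwise the smallest p, without overlap of animals). A panel and up to 4 members per list by p were added. So were 3 genes per direction (smallest p, without overlap of animals) for imipramine against stress, fluoxetine and tianeptine. Only part of the named genes is printed, and Slc6a2, the genes past 0.5 below and the promoter motifs were chosen after their values were seen. The members, lists and panel were chosen with earlier results of these data known.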

Additional observations from a re-analysis of the deposited data

How the results depend on the processing

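The 2 genes called in imipramine minus control fell to 0 with the first control arrays alone, with the 21 arrays unaveraged and a random block for animal, with array medians set equal, with eBayes without trend and with the replicate block. The count was 187 with the repeat control arrays alone, 99 with array weights (74 higher, 25 lower), 5 with only the groups compared, and 0 to 2 with 1 animal left out, where 2 was met only without control 3 and these were H1f4 and Ndufs5, so Rpl39 passed in none of these fits. The causes were not tested. Replicate numbers do not pair the animals by the labels, and same-numbered deviations correlated at 0.290, 0.0951 and 0.0629. With the repeat arrays alone stress minus control had 126. Array weights gave 26 in imipramine minus stress and 486 in imipramine minus fluoxetine, which had 0 to 1 with 1 animal left out (1 without fluoxetine 3). Imipramine minus tianeptine had 1 with only the groups compared (C3). Some log2 differences changed sign, among them that of the called gene Rpl39, which was -0.36 with both arrays. With the first control arrays alone these were Arc (-0.0403), Gpr17 (-0.09), Htr1a (-0.0223), Nr3c1 (0.00133), Ntrk2 (0.005), Sst (-0.005), Atp5if1 (0.00933) and Rpl39 (0.006), with the repeat arrays Cldn5 (0.0663), and with array weights Nr3c1 (0.0117) and Ttr (-0.0528). With 1 animal left out Arc ran from -0.0802 to 0.137, Htr1a from -0.0311 to 0.111, Nr3c1 from -0.0593 to 0.0372, Ntrk2 from -0.0318 to 0.00817, Sst from -0.158 to 0.134 and Ttr from -0.23 to 0.31. The number of arrays, not a depth, limits all values.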

Other observations

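Differences past 0.5 on the log2 scale were met in 21 genes, none of them called. Ldha, the lactate dehydrogenase subunit of glycolytic tissue, had log2 levels of 12.17, 12.12 and 12.59 in imipramine animals, against 12.19, 7.33 and 12.22 in control animals, a difference of 1.71 ± 1.07 (adjusted p = 0.730). Control animal 2 was low on both of its arrays, and fluoxetine animal 1 was low as well, at 7.42. Rnf135, a ubiquitin ligase that activates the RNA sensor RIG-I, had log2 levels of 8.26, 9.15 and 8.79 in imipramine animals, against 7.78, 7.997 and 7.95 in control animals (difference 0.83 ± 0.24, adjusted p = 0.382). Control animal 3 had 8.60 on its first and 7.30 on its repeat array, so Rnf135 overlapped on the first arrays, with a difference of 0.53 against the first and 1.12 against the repeat arrays. Rspo2, a secreted enhancer of Wnt signalling, had 10.02, 10.39 and 10.46 on the log2 scale in imipramine animals, against 9.94, 9.44 and 9.50 in control animals (adjusted p = 0.382). Lpl, lipoprotein lipase, had 10.02, 10.08 and 10.13 on the log2 scale in imipramine animals, against 9.81, 8.93 and 9.82 in control animals (adjusted p = 0.472), and control animal 2 was again the low one.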
